A study of Homo sapiens with 30 samples.

Results

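The 36 genes described here are antioxidant enzymes and genes of the NRF2 response, chosen by name and found on the arrays by the gene name in the files. They comprise 25 targets of the transcription factor NRF2, the NRF2 gene itself (NFE2L2) and its inhibitor KEAP1, and 9 other antioxidant enzymes including SOD2. A probe was found for 35 of them, on 46 probes, and none for AKR1C2. Of these, 34 genes were bright enough for the tests, among 24518 gene names on the 32100 tested probes. The cells were of the immortalized line BEAS-2B, from human bronchial epithelium, grown on Transwell inserts with their upper side in air. A load of 10 mg whole birch pollen was blown into a chamber with pressured air and left to settle onto the cells, which were then returned to their incubator. Mock cells, labelled air, went through the same handling in the same run with the pollen kept out. RNA of 3 replicates per exposure and time was hybridised to 30 one-colour Agilent arrays, and the times were 10 min and 55 min, then 2h25 min and 6h50 min, and last 24 h. All 10 groups therefore shared the line, the interface culture and the handling, and differed in pollen and in time. The methods give the repeats as exposures on different days, and a single immortalized line stands here for the airway epithelium.

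NRF2 is normally captured by KEAP1 and marked for degradation. Oxidants and electrophiles modify KEAP1, after which NRF2 collects in the nucleus, pairs with a small MAF protein and binds antioxidant response elements near genes for glutathione synthesis, thioredoxin recycling, NADPH supply, quinone and carbonyl reduction, and export of conjugates. In airway epithelium this programme is known as a defence against inhaled oxidants and particles. SOD2, the superoxide dismutase of mitochondria, is an antioxidant enzyme that is best known as a target of NF-kB, the factor that also drives genes of inflammation.

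The element bound by NRF2 has the core TGACNNNGC, where N is any base, and was searched on both strands from 250 bases before to 50 bases after the RefSeq start of each gene (GRCh38.p14). It was found in 13.6% of 27305 promoters. Of the 28 members with a promoter in the RefSeq table, 5 held it (17.9%), all of them among the 19 NRF2 targets with a promoter (26.3%). The 5 stretches are shown to put the core beside genes whose test results are given below, and binding of NRF2 to them was not tested. A second core of TXNRD1, on the opposite strand at positions -8 to 0 from its start, is not shown. Each runs 5′ to 3′ on the strand of its gene with up to 30 bases on either side and none past the start, and the capitals mark the core.
GCLM, chr1:93909431-93909494, minus strand: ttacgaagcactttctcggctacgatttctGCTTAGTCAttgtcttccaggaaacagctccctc
GPX2, chr14:64942829-64942897, minus strand: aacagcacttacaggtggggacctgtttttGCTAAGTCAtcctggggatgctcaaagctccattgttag
ME1, chr6:83431150-83431218, minus strand: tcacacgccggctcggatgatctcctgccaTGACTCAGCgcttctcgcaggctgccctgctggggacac
PGD, chr1:10398833-10398901, plus strand: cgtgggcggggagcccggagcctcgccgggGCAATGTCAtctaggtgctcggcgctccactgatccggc
TXNRD1, chr12:104215650-104215718, plus strand: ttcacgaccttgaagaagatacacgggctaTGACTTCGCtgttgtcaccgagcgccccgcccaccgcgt
GCLM is the modifier subunit of the enzyme that starts glutathione synthesis, GPX2 a glutathione peroxidase of epithelia, ME1 and PGD are enzymes that make NADPH, and TXNRD1 recycles thioredoxin. The NF-kB site was found in 10.8% of all promoters and in 1 member with a promoter, EPHX1, and not in the window of SOD2. The members ABCC1, AKR1B10, GSR, HMOX1, PRDX1, PRDX6, SLC7A11 and SOD1 had no entry.

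Levels below are log2 intensities of a probe minus the 75th percentile of its array over the probes that both array designs share, so that 0 is that percentile, and differences are log2 fold changes. The share of probes well above background ran from 44.67% to 59.32% over the arrays, with 0 saturated spots, and the precision is limited by having 3 arrays in each group. All 6h50 min arrays lay on 1 slide with a scan day of its own, all 10 min arrays lay on another slide, which among the later times held mock replicate 1 of 55 min alone, and the 24 h arrays shared a slide with replicate 3 of 2h25 min. Every change from 10 min to 2h25 min, 6h50 min or 24 h given below was therefore also a change of slide, and time and slide cannot be told apart there. An area in the middle of mock replicates 1 and 2 of 6h50 min was dim, and it held tested probes of ABCC2, AKR1C1, OSGIN1 and PRDX6. Where values of that area were left out, mock at 6h50 min rested on 1 array, which the fit assumes to vary like the other groups. The 55 min pollen replicate 1 array was of another design with 42405 probes. Of the cell type markers, 7 of 7 epithelial ones were well above background on all 30 arrays. PECAM1, a defining marker of endothelium, was so on 0 of 30. The fibroblast markers COL1A1, PDGFRB and DCN were so on all 30 arrays and COL1A2 on 27, and PTPRC of leukocytes and CDH5 of endothelium on 30. Between mock and pollen the summed levels of the 4 marker lists overlapped at every time.

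No member of the antioxidant response passed the test for a difference between pollen and mock at any time. In limma, 0 of 34 members reached an adjusted p under 0.05 with a change of at least 1.1-fold at any of the 5 times. Over all 32100 tested probes, 0% were called at 10 min, 0.00312% at 55 min, 0.0343% at 2h25 min, 0.0436% at 6h50 min and 0.00312% at 24 h, so that calls were rare everywhere. At an unadjusted p under 0.05 the members counted 0, 1, 0, 2 and 1 in the same order, while 1.83%, 5.08%, 2.98%, 7.44% and 3.61% of all probes did so. The median difference of the 24 NRF2 targets was -0.0625 at 10 min, -0.0645 at 55 min, 0.0284 at 2h25 min, 0.0243 at 6h50 min and -0.00908 at 24 h. Over all tested probes the medians were 0.0064, -0.00664, -0.0318, 0.00107 and -0.00333. The sizes of the single members lay between -0.29 and 0.47 at 10 min, -1.18 and 0.23 at 55 min, -0.57 and 0.27 at 2h25 min, -0.33 and 0.50 at 6h50 min, and -0.25 and 0.33 at 24 h. The bottom of the 55 min range was OSGIN1 and the top of the 6h50 min range was SOD2. The 9 other antioxidant enzymes had a median difference of -0.047 at 10 min, -0.00711 at 55 min, -0.021 at 2h25 min, 0.0569 at 6h50 min and 0.0938 at 24 h. Of these 9, the differences were negative for 7 at 10 min, 5 at 55 min, 6 at 2h25 min, 2 at 6h50 min and 0 at 24 h. Of the 24 NRF2 targets, 17, 17, 10, 10 and 13 were negative in the same order. All genes share the same arrays, and the share of all probes with a negative difference was not counted. The effect of pollen did not pass the test between neighbouring times for any member either, with 0 of 34 called in each of 4 interaction contrasts and 0%, 0%, 0.00312% and 0% of all probes. With mock and pollen of the same run paired as a replicate block, 0 members were called at each of the 5 times. Where mock and pollen arrays of a member are described below as apart, the share of all probes that lay apart was not counted.

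**Figure D1:**
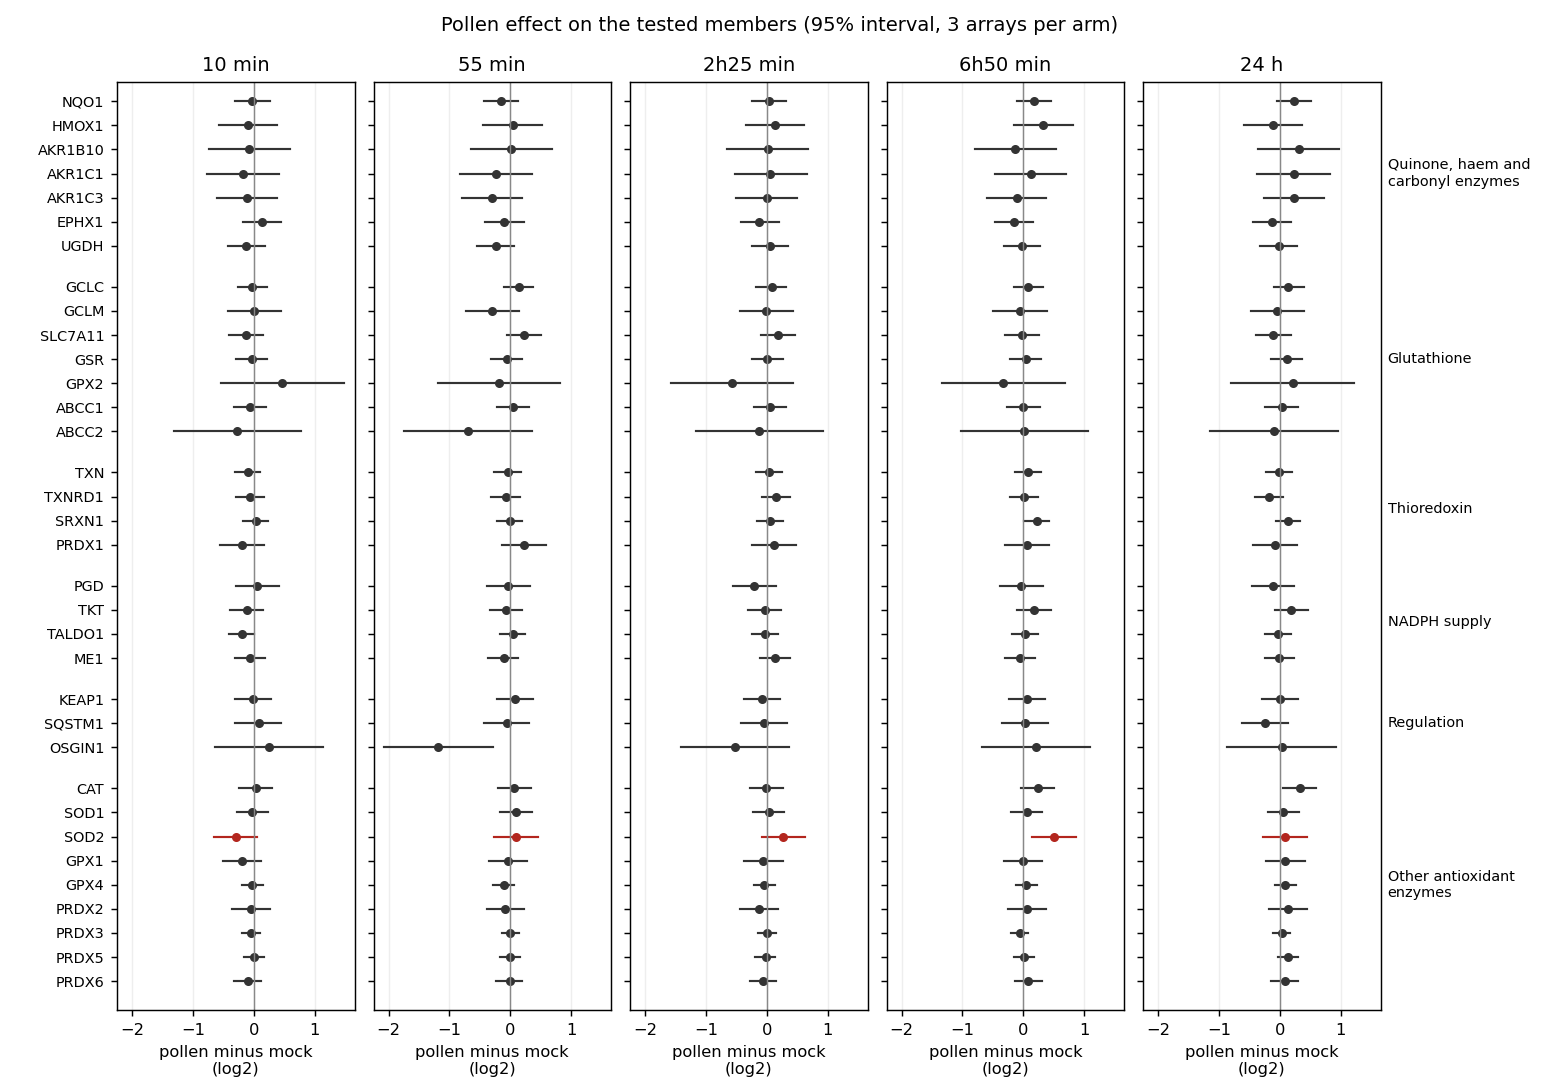
Difference between pollen and mock (log2, horizontal axis) for each of the 34 tested members at the 5 times, grouped by role, with points for the limma estimate and bars for its 95% interval from 3 arrays per arm. Most intervals span 0, and SOD2, drawn in red, sits at 0.50 at 6h50 min, to the right of the other members.

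Among the probes that represent the members, SOD2 had the largest positive difference between pollen and mock, at 6h50 min (probe of NM_001024465, hg19 chr6:160103590-160103649). In mock, SOD2 read 1.81, 1.81 and 1.87 at 10 min, 1.72, 1.79 and 1.94 at 55 min, 2.0, 1.93 and 2.05 at 2h25 min, 1.53, 1.69 and 1.88 at 6h50 min, and 2.37, 1.97 and 1.8 at 24 h. Under pollen, SOD2 read 1.66, 1.03 and 1.93 at 10 min, 1.73, 1.96 and 2.05 at 55 min, 2.26, 2.3 and 2.24 at 2h25 min, 2.08, 2.23 and 2.3 at 6h50 min, and 2.38, 1.88 and 2.13 at 24 h. At 10 min pollen replicates 1 and 2 lay below the mock arrays, replicate 2 by far, and replicate 3 above them, and at 55 min the groups overlapped. At 2h25 min and 6h50 min every pollen array lay above every mock array, and at 24 h the groups overlapped again. The difference was -0.29 ± 0.17 (SE) at 10 min, 0.10 at 55 min, 0.27 at 2h25 min (95% interval -0.08 to 0.63), 0.50 at 6h50 min (0.15 to 0.86, 1.42-fold) and 0.08 at 24 h. At 6h50 min limma gave an adjusted p of 0.343 over all probes, so that the difference did not pass the test. Within a slide, where both arms could be compared, it was 0.14 at 55 min, and 0.31 and 0.19 at 2h25 min, the last from 1 array per arm. The paired fit and the other settings left the 6h50 min difference between 0.48 and 0.72, with adjusted p between 0.0566 and 1.

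Set against its own start, SOD2 rose under pollen by 0.73 at 2h25 min (adjusted p = 0.0259 in limma), 0.66 at 6h50 min (adjusted p = 0.00426) and 0.59 at 24 h (adjusted p = 0.0103). In mock the differences of SOD2 from 10 min were 0.16, -0.13 and 0.21 at these times and none was called. The low 10 min pollen replicate 2 enters each of the pollen values. Without it the SOD2 difference was 0.47 at 2h25 min (adjusted p = 0.129) and 0.34 at 24 h (adjusted p = 0.0997), and neither was called, while the call at 6h50 min was kept. The 2h25 min call was also lost without 10 min pollen replicate 1 (adjusted p = 0.0557) and without 2h25 min pollen replicate 1, 2 or 3 (adjusted p = 0.102, 0.066 and 0.0502), and the 24 h call without 24 h pollen replicate 1 (adjusted p = 0.0715). The test of the difference between arms in this change gave 0.57 at 2h25 min, 0.79 at 6h50 min and 0.38 at 24 h, with limma's adjusted p of 1, 0.954 and 1. With slide as a random block the 2h25 min and 24 h calls of SOD2 were lost (adjusted p = 0.231 and 0.0714), as they were with the percentile over all probes of an array (adjusted p = 0.26 and 0.0967). With that percentile the SOD2 changes under pollen were 0.79 and 0.68. The 3 contrasts between arms were added after the values had been seen, and called 0 members, beside 0.00312%, 0% and 0% of all probes.

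The NF-kB targets, listed with results of these samples known and partly named by the study for them, are set beside SOD2 as a description. Their median difference between pollen and mock, over 20 tested genes, was -0.0507 at 10 min, 0.562 at 55 min, 0.563 at 2h25 min, 0.342 at 6h50 min and 0.0917 at 24 h. None was called, and 0, 9, 9, 4 and 1 of the 20 were higher at an unadjusted p under 0.05, where 1.42%, 1.52%, 1.51%, 5.04% and 2.56% of all probes were. IER3, an early response gene, differed by 0.88 at 55 min and by 1.08 at 2h25 min (adjusted p = 0.0586), and IL1B, an inflammatory cytokine, by 0.78 and 1.19 (adjusted p = 0.0727 at 2h25 min). The NF-kB inhibitor TNFAIP3 differed by 1.09 at 55 min, NFKB1 by 0.48 at 2h25 min, the adhesion molecule ICAM1 by 0.46 at 6h50 min, and TRAF1 by 0.46 at 24 h. The SOD2 values of 0.10 and 0.27 at 55 min and 2h25 min lay below those medians, and its 0.50 at 6h50 min lay above.

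**Figure D2:**
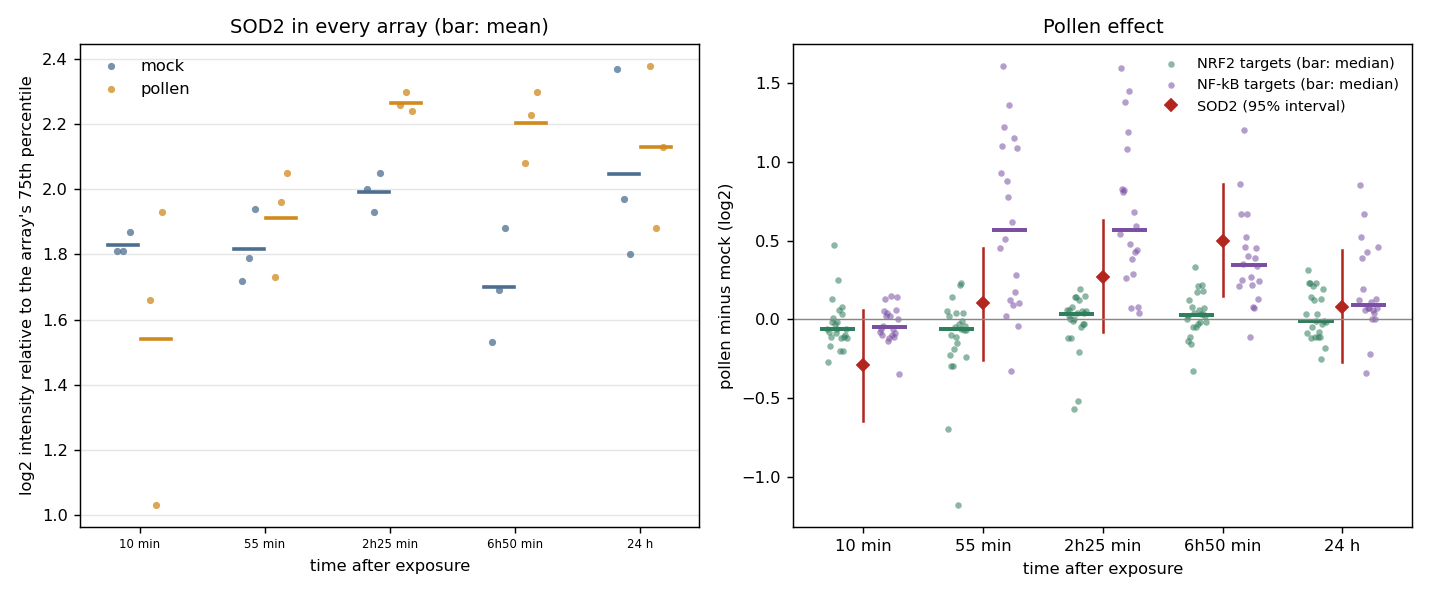
Left, log2 intensity of SOD2 relative to the 75th percentile of the array (vertical axis) in every array over the 5 times, mock and pollen, with bars for the means. Right, pollen minus mock (log2) for SOD2 with its 95% interval beside the 24 NRF2 targets and the 20 NF-kB targets, each a point, with bars at their medians. The NRF2 targets gather around 0 at every time, while the NF-kB medians are 0.562 at 55 min and 0.563 at 2h25 min.

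Changes of the members over time were larger, reaching -3.13 for AKR1B10, and took place in mock as well as under pollen. Against 10 min of the same arm, 0 of 34 members were called in mock at 55 min and at 2h25 min, 12 at 6h50 min (3 higher, 9 lower) and 16 at 24 h (4 higher, 12 lower). Of all tested probes, 0.187%, 0.171%, 38.4% and 37.5% were called in these comparisons. The members' 35.3% at 6h50 min thus stands beside 38.4%, and their 47.1% at 24 h beside 37.5%. By direction, 13.1% of all probes rose and 25.3% fell at 6h50 min, where 3 of 34 members rose (8.82%) and 9 fell. At 24 h 17.5% of all probes rose and 20% fell, where 4 of 34 members rose (11.8%) and 12 fell. Under pollen the members called were 0, 3 (all higher), 12 (5 higher, 7 lower) and 14 (6 higher, 8 lower), and of all probes 0.841%, 2.07% (1.03% in each direction), 42.9% (14.6% higher, 28.3% lower) and 35.3% (15.8% higher, 19.5% lower). At 6h50 min 9 members were called in both arms and at 24 h 11 were, all of them in the same direction, which is 26.5% and 32.4% of the members beside 29.5% and 27.2% of all probes. The markers moved over time as well, in intensity relative to the 75th percentile. The summed level of the 4 fibroblast markers ranged from 0.797 to 0.903 over the mock arrays at 10 min and from 0.284 to 0.331 at 24 h, and under pollen from 0.774 to 0.918 and from 0.328 to 0.372. That of the 7 epithelial markers ranged from 244 to 318 and from 131 to 172 in mock, and from 235 to 283 and from 146 to 174 under pollen. Their part in the changes of the members was not tested, and in bulk RNA fewer cells of a kind and less RNA per cell cannot be told apart. The median change of all probes at 6h50 min was -0.168 in mock and -0.173 under pollen, and 0.016 and 0.012 after normexp and quantile normalization. With the percentile taken over all probes of an array in place of the shared ones, 5 and 7 members were called in mock and 0, 7 and 6 under pollen at 2h25 min, 6h50 min and 24 h.

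**Figure D3:**
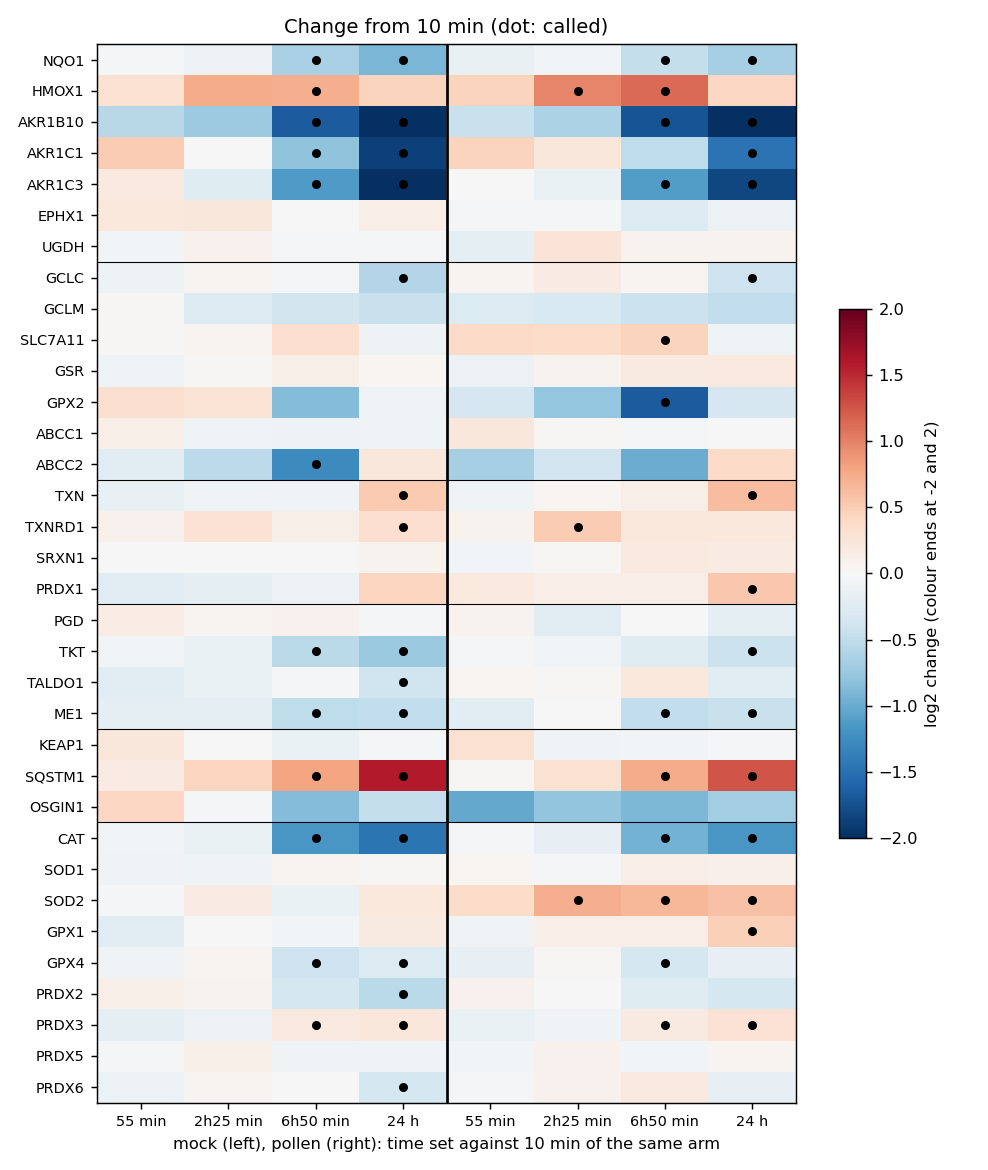
Change from 10 min of the same arm (log2, colour scale ending at -2 and 2) for the 34 tested members, with mock in the left 4 columns and pollen in the right 4, and a dot where limma called the change. The blue rows of the aldo-keto reductases, NQO1 and CAT and the red row of SQSTM1 recur on both sides of the map at 6h50 min and 24 h.

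Among the regulators, KEAP1, the adaptor that holds NRF2 back, was called in no comparison. In mock, KEAP1 read 0.83, 0.9 and 0.86 at 10 min, 1.28, 1.05 and 0.91 at 55 min, 0.85, 1.07 and 0.68 at 2h25 min, 0.58, 0.71 and 0.91 at 6h50 min, and 0.94, 0.78 and 0.76 at 24 h. Under pollen, KEAP1 read 0.86, 0.83 and 0.88 at 10 min, 1.58, 1.01 and 0.9 at 55 min, 0.71, 0.99 and 0.67 at 2h25 min, 0.77, 0.91 and 0.7 at 6h50 min, and 0.93, 0.79 and 0.77 at 24 h. The arms of KEAP1 overlapped at every time, with differences between -0.08 and 0.08, and the 55 min pollen replicate 1 of the other design was the highest array. The probe of NFE2L2 (NM_006164, hg19 chr2:178095693-178095752) was well above background on 1 of 30 arrays and was not tested. In mock, NFE2L2 read -7.82, -8.44 and -7.42 at 10 min, -8.08, -7.13 and -6.54 at 55 min, -8.27, -7.81 and -8.18 at 2h25 min, -8.61, -8.55 and -9.16 at 6h50 min, and -8.51, -8.23 and -6.75 at 24 h. Under pollen, NFE2L2 read -7.8, -8.25 and -7.02 at 10 min, -8.77, -8.44 and -7.09 at 55 min, -8.1, -8.34 and -7.51 at 2h25 min, -8.79, -8.36 and -8.75 at 6h50 min, and -8.31, -8.3 and -8.61 at 24 h. In mock the 3 arrays of 6h50 min read lowest, and under pollen they overlapped with other times. Since the probe was not well above background on these arrays, no level of the NRF2 transcript was read from them.

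SQSTM1 codes for p62, an autophagy receptor that binds KEAP1 and is itself an NRF2 target. In mock, SQSTM1 read 3.39, 3.13 and 3.04 at 10 min, 3.32, 3.34 and 3.4 at 55 min, 3.97, 3.41 and 3.45 at 2h25 min, 4.11, 4.01 and 3.79 at 6h50 min, and 5.07, 4.77 and 4.47 at 24 h. Under pollen, SQSTM1 read 3.46, 3.25 and 3.07 at 10 min, 3.14, 3.41 and 3.33 at 55 min, 3.7, 3.59 and 3.41 at 2h25 min, 4.12, 4.11 and 3.77 at 6h50 min, and 4.72, 4.75 and 4.1 at 24 h. Both arms climbed together, and every array at 6h50 min and 24 h lay above every 10 min array of its arm. SQSTM1 rose in mock by 0.79 at 6h50 min (adjusted p = 0.00205) and by 1.59, or 3.00-fold, at 24 h (adjusted p = 7.63e-07), and under pollen by 0.74 and 1.26 (adjusted p = 0.00285 and 1.74e-05). Between 2h25 min and 24 h on the slide that held both, the difference was 1.32 in mock and 1.11 under pollen, each from 1 array of 2h25 min. Pollen minus mock was -0.25 ± 0.18 (SE) at 24 h (adjusted p = 1), with each pollen array below the mock array of its run.

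OSGIN1, a growth inhibitor induced by oxidative stress, carried 4 tested probes that did not move alike. The array values listed next are of its brightest probe on both designs, which the files place under the Ensembl transcript ENST00000563248. In mock, OSGIN1 read -4.0, -3.81 and -4.03 at 10 min, -3.4, -4.0 and -3.22 at 55 min, -4.11, -3.55 and -4.24 at 2h25 min, -5.0, -4.8 and -4.63 at 6h50 min, and -4.67, -4.18 and -4.42 at 24 h. Under pollen, OSGIN1 read -3.61, -3.97 and -3.51 at 10 min, -6.39, -3.72 and -4.03 at 55 min, -5.05, -4.01 and -4.4 at 2h25 min, -4.98, -4.49 and -4.33 at 6h50 min, and -4.61, -4.19 and -4.37 at 24 h. The 55 min pollen replicate 1, the array of the other design, stood far below every other array. The pollen difference of OSGIN1 at 55 min was -1.18 ± 0.43 (SE, adjusted p = 0.92) with this array and -0.34 without it. Its probe of NM_182981 differed between pollen and mock by 0.94 ± 0.30 (SE) at 6h50 min (adjusted p = 0.283), where the probe given above differed by 0.21. The NM_182981 probe lay in the dim area and read -6.4, -5.37 and -4.47 in mock at 6h50 min, and without the values of the area the difference was -0.01 ± 0.27 (SE, adjusted p = 1). In mock at 24 h the NM_182981 probe rose by 1.32 (adjusted p = 0.00132) while the probe given above stood at -0.48 against 10 min, so that the direction for OSGIN1 depends on the probe. Whether these probes read the same transcript was not tested. A brighter probe, not on the other array design, was called lower under pollen at 6h50 min (-0.82), with -0.21 in mock not called. The last of the 4 probes was called in no comparison.

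The aldo-keto reductases reduce reactive carbonyls, and AKR1B10 (NM_020299, hg19 chr7:134225939-134225998), AKR1C1 and AKR1C3 showed the steepest falls of all members at 24 h. In mock, AKR1B10 read -3.32, -2.97 and -2.54 at 10 min, -3.6, -3.5 and -3.39 at 55 min, -4.31, -2.97 and -3.75 at 2h25 min, -4.95, -4.51 and -4.38 at 6h50 min, and -6.38, -6.42 and -5.42 at 24 h. Under pollen, AKR1B10 read -3.51, -3.17 and -2.4 at 10 min, -3.49, -3.53 and -3.42 at 55 min, -4.18, -3.16 and -3.63 at 2h25 min, -4.82, -4.91 and -4.53 at 6h50 min, and -5.9, -5.84 and -5.56 at 24 h. Every AKR1B10 array at 6h50 min and 24 h lay below every 10 min array, in mock and under pollen alike. AKR1B10 fell by 1.67 at 6h50 min and by 3.13 at 24 h in mock (8.75-fold, SE 0.32, adjusted p = 2.23e-07), and by 1.73 and 2.74 under pollen (adjusted p = 0.000304 and 1.82e-06). At 24 h it was well above background on 2 of 3 mock arrays. After normexp and quantile normalization, the AKR1B10 difference in mock was -0.87 at 6h50 min and -1.52 at 24 h. In the deposited table it was -1.05 and -2.05. Its size thus depends on the processing, in which no single step was varied alone, while the calls were kept. A second AKR1B10 probe fell by 2.15 in mock and by 1.95 under pollen at 24 h.

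AKR1C3, also known for its role in prostaglandin and steroid metabolism, followed. In mock, AKR1C3 read -1.8, -1.88 and -1.86 at 10 min, -1.1, -1.82 and -2.07 at 55 min, -2.51, -1.57 and -2.21 at 2h25 min, -2.93, -2.62 and -3.37 at 6h50 min, and -4.23, -3.83 and -3.98 at 24 h. Under pollen, AKR1C3 read -2.0, -1.94 and -1.94 at 10 min, -1.75, -2.08 and -2.05 at 55 min, -2.36, -1.76 and -2.18 at 2h25 min, -2.96, -3.01 and -3.29 at 6h50 min, and -4.02, -3.84 and -3.48 at 24 h. The 6h50 min and 24 h arrays of AKR1C3 lay below all earlier ones in both arms. AKR1C3 fell by 1.13 at 6h50 min and fell by 2.16 at 24 h in mock (adjusted p = 0.00111 and 5.31e-07), and by 1.12 and 1.82 under pollen (adjusted p = 0.000962 and 6.88e-06). In mock, AKR1C1 read -2.0, -2.32 and -2.26 at 10 min, -1.17, -1.87 and -2.04 at 55 min, -2.56, -1.62 and -2.41 at 2h25 min, -2.85, -2.8 and -3.31 at 6h50 min, and -4.54, -3.79 and -3.83 at 24 h. Under pollen, AKR1C1 read -2.37, -2.44 and -2.27 at 10 min, -1.29, -1.96 and -2.53 at 55 min, -2.19, -1.87 and -2.35 at 2h25 min, -2.89, -2.72 and -3.0 at 6h50 min, and -4.17, -3.72 and -3.6 at 24 h. AKR1C1 was lowest at 24 h in both arms, without overlap with any earlier time. By 24 h it fell by 1.86 in mock and by 1.47 under pollen (adjusted p = 2.53e-05 and 0.000441). At 6h50 min AKR1C1 fell by 0.80 in mock (adjusted p = 0.0317), a call lost without 10 min mock replicate 1 or 3 or 6h50 min mock replicate 3 (adjusted p = 0.0968, 0.0613 and 0.125), and the pollen difference of -0.51 was not called. That mock value was -0.33 after normexp and quantile normalization and -0.35 in the deposited table, and neither was called (adjusted p = 0.285 and 0.191). AKR1C genes are near-identical in sequence, and signal that one probe takes from another member of the family cannot be told apart here. On the slide that held both times, 24 h lay below 2h25 min by values of -2.33 and -2.14 for AKR1B10, -1.80 and -1.59 for AKR1C3 and -1.64 and -1.48 for AKR1C1, in mock and under pollen. Each of these values rests on 1 array of 2h25 min. Pollen minus mock for the 3 genes lay between -0.30 and 0.31 over the 5 times, none called. A second probe of AKR1C1 differed by 0.66 ± 0.24 (SE, adjusted p = 0.402) at 6h50 min, where the first differed by 0.12. This second AKR1C1 probe lay in the dim area and read -4.18, -3.87 and -4.8 in mock at 6h50 min, and without the values of the area the difference was 1.18 ± 0.31 (SE, adjusted p = 0.407). Against 10 min the second probe fell by 1.59 in mock and by 0.87 under pollen at 6h50 min (adjusted p = 4.44e-05 and 0.00662), so that the call under pollen depends on the probe, and it fell by 1.52 and by 1.16 at 24 h.

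NQO1, the quinone reductase most often read as a mark of NRF2 activity (NM_000903, hg19 chr16:69744274-69744333), also fell in both arms. In mock, NQO1 read -1.91, -1.97 and -1.92 at 10 min, -1.9, -1.83 and -2.13 at 55 min, -2.04, -1.82 and -2.3 at 2h25 min, -2.53, -2.55 and -2.68 at 6h50 min, and -2.96, -2.95 and -2.65 at 24 h. Under pollen, NQO1 read -2.03, -2.05 and -1.78 at 10 min, -2.17, -2.01 and -2.11 at 55 min, -2.0, -1.85 and -2.19 at 2h25 min, -2.52, -2.45 and -2.29 at 6h50 min, and -2.86, -2.61 and -2.38 at 24 h. Its 6h50 min and 24 h arrays lay below all earlier ones. NQO1 fell by 0.65 and 0.92 in mock at 6h50 min and 24 h (adjusted p = 0.000842 and 1.44e-05), and by 0.47 and 0.66 under pollen (adjusted p = 0.00864 and 0.000603). The 6h50 min call under pollen was lost without 10 min pollen replicate 3 (adjusted p = 0.054) and with slide as a random block (adjusted p = 0.0568). It was also lost after normexp and quantile normalization (-0.21, adjusted p = 0.142) and in the deposited table (-0.24, adjusted p = 0.109). Each pollen array was higher than the mock array of its run at both late times, by a mean of 0.17 with the groups apart at 6h50 min and 0.23 with the groups overlapping at 24 h (adjusted p = 0.922 and 1).

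HMOX1, the haem oxygenase that BACH1 holds back and NRF2 drives, went the other way. In mock, HMOX1 read 2.87, 2.45 and 2.74 at 10 min, 2.83, 3.18 and 2.99 at 55 min, 3.63, 3.63 and 3.03 at 2h25 min, 3.8, 3.57 and 2.86 at 6h50 min, and 3.25, 3.28 and 2.86 at 24 h. Under pollen, HMOX1 read 2.55, 2.52 and 2.72 at 10 min, 3.2, 3.07 and 2.86 at 55 min, 3.88, 3.86 and 2.97 at 2h25 min, 3.84, 3.79 and 3.6 at 6h50 min, and 2.96, 3.22 and 2.87 at 24 h. Pollen arrays were above the 10 min ones from 55 min onwards, and in mock replicate 3 stayed near its start while replicates 1 and 2 were higher at 2h25 min and 6h50 min. HMOX1 rose under pollen by 0.97 at 2h25 min (1.96-fold, adjusted p = 0.0276) and by 1.14 at 6h50 min (2.21-fold, adjusted p = 0.000656), and in mock by 0.72 at 6h50 min (adjusted p = 0.0184), with 0.74 at 2h25 min not called (adjusted p = 0.198). The 2h25 min call was lost without 10 min pollen replicate 1, 2 or 3 (adjusted p = 0.102, 0.0848 and 0.0583) and without 2h25 min pollen replicate 1 or 2 (adjusted p = 0.179 and 0.0968). The mock call at 6h50 min was lost without 10 min mock replicate 2 or 6h50 min mock replicate 1 or 2 (adjusted p = 0.0798, 0.11 and 0.066). With slide as a random block the 2h25 min call of HMOX1 and its mock call at 6h50 min were lost (adjusted p = 0.169 and 0.0771). Within the slide that held 55 min and 2h25 min arrays, HMOX1 was higher at 2h25 min by a mean of 0.54 in mock and 0.90 under pollen. Pollen minus mock was 0.14 at 2h25 min and 0.33 ± 0.23 (SE) at 6h50 min (adjusted p = 1 and 0.88).

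**Figure D4:**
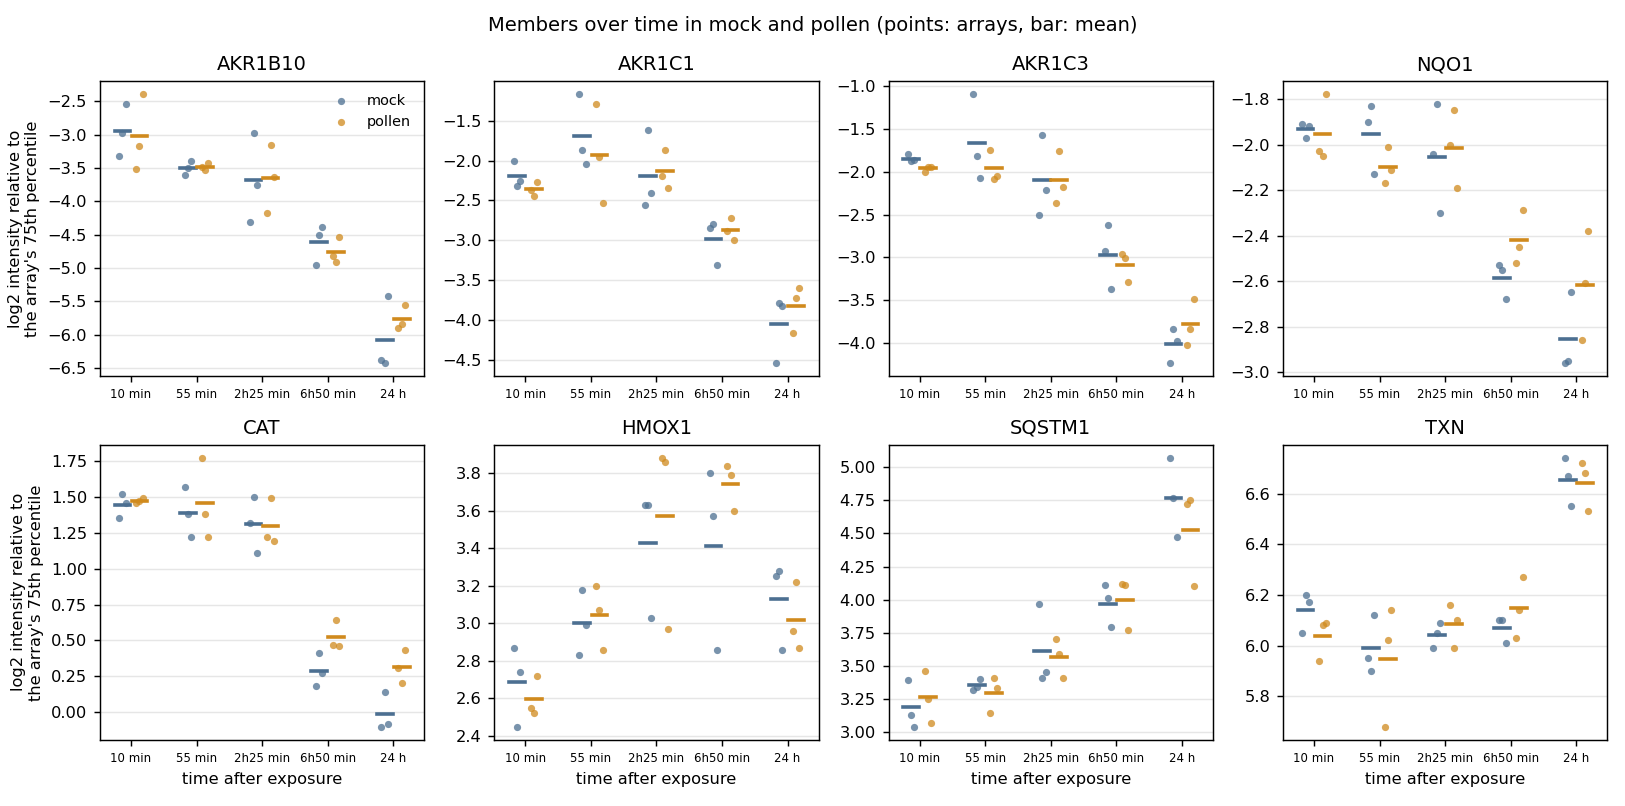
Log2 intensity relative to the 75th percentile of the array (vertical axis, its range differing between panels) for 8 members over the 5 times, with a point for each array of mock and pollen and bars for the means. AKR1B10, AKR1C1, AKR1C3, NQO1 and CAT step down, SQSTM1 steps up, TXN is higher at 24 h, and HMOX1 is highest at 2h25 min or 6h50 min, with mock and pollen side by side.

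For the glutathione branch, the cystine importer SLC7A11 supplies the cysteine. In mock, SLC7A11 read 3.16, 2.8 and 3.09 at 10 min, 2.98, 3.13 and 3.04 at 55 min, 3.2, 3.06 and 2.94 at 2h25 min, 3.54, 3.33 and 3.21 at 6h50 min, and 2.91, 2.98 and 2.88 at 24 h. Under pollen, SLC7A11 read 2.93, 2.66 and 3.1 at 10 min, 3.59, 3.1 and 3.16 at 55 min, 3.39, 3.2 and 3.17 at 2h25 min, 3.34, 3.28 and 3.4 at 6h50 min, and 2.74, 3.03 and 2.67 at 24 h. The arms overlapped at every time. Pollen minus mock for SLC7A11 was 0.23 at 55 min (adjusted p = 0.92), 0.08 without the array of the other design, and 0.19 at 2h25 min (adjusted p = 1). Over time SLC7A11 rose under pollen at 6h50 min by 0.44 (adjusted p = 0.0129), a call lost without 10 min pollen replicate 2 (0.33, adjusted p = 0.0784), while the mock difference of 0.34 was not called (adjusted p = 0.0509). In mock, GCLM read 1.69, 1.55 and 1.66 at 10 min, 1.67, 1.5 and 1.83 at 55 min, 1.22, 1.77 and 1.07 at 2h25 min, 1.31, 1.59 and 0.92 at 6h50 min, and 1.02, 1.26 and 1.31 at 24 h. Under pollen, GCLM read 1.62, 1.52 and 1.81 at 10 min, 1.19, 1.41 and 1.51 at 55 min, 1.17, 1.31 and 1.56 at 2h25 min, 1.25, 1.04 and 1.37 at 6h50 min, and 0.62, 1.68 and 1.15 at 24 h. GCLM overlapped between arms at every time and was called in no comparison, with its values from 10 min reaching -0.44 in mock and -0.50 under pollen at 24 h (adjusted p = 0.107 and 0.07). Its partner GCLC, the catalytic subunit of glutamate-cysteine ligase, fell at 24 h by 0.58 in mock (adjusted p = 0.000494) and by 0.41 under pollen (adjusted p = 0.00901). The GCLC call under pollen was lost without 10 min pollen replicate 2 or 24 h pollen replicate 1 (adjusted p = 0.0721 and 0.0652).

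The remaining glutathione genes GSR, ABCC1, GPX2 and ABCC2 were called at most at 6h50 min. GSR, which regenerates reduced glutathione, and the conjugate exporter ABCC1 were called at no time. In mock, GPX2 read -5.7, -5.83 and -5.91 at 10 min, -5.09, -5.78 and -5.63 at 55 min, -5.94, -5.12 and -5.55 at 2h25 min, -6.94, -5.55 and -7.53 at 6h50 min, and -6.41, -5.14 and -6.14 at 24 h. Under pollen, GPX2 read -5.34, -5.74 and -4.94 at 10 min, -6.65, -5.42 and -4.99 at 55 min, -6.87, -6.01 and -5.45 at 2h25 min, -7.34, -7.52 and -6.15 at 6h50 min, and -6.09, -5.31 and -5.65 at 24 h. GPX2 was dim, well above background on 23 of 30 arrays and on 1 of 3 in each arm at 6h50 min. GPX2 fell by 1.66 under pollen at 6h50 min (adjusted p = 0.00954), a call lost without 6h50 min pollen replicate 2 (adjusted p = 0.0533), and its mock difference of -0.86 was not called. After normexp and quantile normalization the pollen value of GPX2 was -0.17 (adjusted p = 0.209) and in the deposited table -0.3 (adjusted p = 0.202). In mock, ABCC2 read -4.76, -6.65 and -6.61 at 10 min, -6.06, -6.43 and -6.21 at 55 min, -6.63, -6.16 and -6.8 at 2h25 min, -6.94, -8.23 and -6.69 at 6h50 min, and -5.13, -6.08 and -6.16 at 24 h. Under pollen, ABCC2 read -6.77, -6.26 and -5.79 at 10 min, -7.37, -6.07 and -7.36 at 55 min, -6.05, -7.38 and -6.54 at 2h25 min, -7.13, -7.65 and -7.04 at 6h50 min, and -5.05, -6.51 and -6.08 at 24 h. The exporter ABCC2 was well above background on 20 of 30 arrays, at 6h50 min on 1 of 3 arrays in mock and 0 of 3 under pollen, and its spot lay in the dim area. ABCC2 fell by 1.28 in mock at 6h50 min (adjusted p = 0.0494). Without the values of the dim area this was -0.68 (adjusted p = 0.449), and the call was also lost without 10 min mock replicate 1 (-0.66, adjusted p = 0.307) or 6h50 min mock replicate 1 or 2 (-1.46 and -0.81, adjusted p = 0.0594 and 0.246).

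In the thioredoxin branch, TXNRD1 and thioredoxin itself (TXN) were called over time. In mock, TXNRD1 read -1.21, -1.22 and -0.84 at 10 min, -1.09, -0.93 and -1.01 at 55 min, -0.95, -0.68 and -0.76 at 2h25 min, -1.0, -0.93 and -0.97 at 6h50 min, and -0.68, -0.89 and -0.7 at 24 h. Under pollen, TXNRD1 read -1.29, -1.1 and -1.06 at 10 min, -1.18, -1.04 and -1.03 at 55 min, -0.8, -0.4 and -0.75 at 2h25 min, -0.94, -0.88 and -1.0 at 6h50 min, and -0.86, -0.95 and -1.01 at 24 h. The TXNRD1 arms overlapped at every time, with each pollen array above its mock partner at 2h25 min by a mean of 0.15 and below it at 24 h, with a mean of -0.18 (adjusted p = 1 for both). TXNRD1 rose under pollen by 0.50 at 2h25 min (1.41-fold, adjusted p = 0.0198), a call lost without 10 min pollen replicate 1 or 2h25 min pollen replicate 2 (adjusted p = 0.112 and 0.0905) and with slide as a random block (adjusted p = 0.195). In mock TXNRD1 rose by 0.33 at 24 h (adjusted p = 0.0248), lost without 10 min mock replicate 1 or 2 or 24 h mock replicate 1 or 3 (adjusted p = 0.104, 0.114, 0.0947 and 0.0719). TXN rose at 24 h by 0.52 in mock (adjusted p = 0.000423) and by 0.61 under pollen (adjusted p = 0.000114). Between 2h25 min and 24 h on the shared slide the TXN values were 0.56 and 0.55, each from 1 array of 2h25 min.

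SRXN1, sulfiredoxin, which restores over-oxidised peroxiredoxins, was among the members with the smallest p between pollen and mock at 6h50 min. In mock, SRXN1 read 1.38, 1.32 and 1.45 at 10 min, 1.41, 1.53 and 1.21 at 55 min, 1.39, 1.47 and 1.31 at 2h25 min, 1.3, 1.49 and 1.37 at 6h50 min, and 1.54, 1.4 and 1.43 at 24 h. Under pollen, SRXN1 read 1.43, 1.32 and 1.51 at 10 min, 1.47, 1.33 and 1.31 at 55 min, 1.52, 1.55 and 1.24 at 2h25 min, 1.56, 1.66 and 1.59 at 6h50 min, and 1.68, 1.45 and 1.64 at 24 h. At 6h50 min all 3 pollen arrays of SRXN1 lay above all 3 mock arrays, and at the other times the groups overlapped. The difference was 0.22 ± 0.10 (SE, 1.17-fold, adjusted p = 0.619) at 6h50 min and 0.13 at 24 h (adjusted p = 1). SRXN1 changed over time in neither arm by the test. PRDX1, a thioredoxin-dependent peroxidase, rose under pollen at 24 h by 0.54 (adjusted p = 0.0183), a call lost without 10 min pollen replicate 1 (0.31, adjusted p = 0.16) or 24 h pollen replicate 1 (adjusted p = 0.0946). In mock this PRDX1 probe differed by 0.43 (adjusted p = 0.054). A second PRDX1 probe rose at 24 h in both arms, by 0.68 in mock and by 0.71 under pollen (adjusted p = 0.000225 and 0.000194).

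Enzymes of NADPH supply fell over time where they were called. The transketolase TKT fell by 0.54 and 0.74 in mock at 6h50 min and 24 h (adjusted p = 0.0033 and 0.000142) and by 0.43 under pollen at 24 h (adjusted p = 0.0139), the last lost without 10 min pollen replicate 3 (adjusted p = 0.0819). ME1, malic enzyme, fell by 0.51 and 0.50 in mock and by 0.49 and 0.45 under pollen at the same times (adjusted p between 0.00199 and 0.00579), and PGD was called at no time. In mock, TALDO1 read 5.28, 5.26 and 5.32 at 10 min, 5.15, 5.03 and 5.04 at 55 min, 5.13, 5.23 and 5.1 at 2h25 min, 5.37, 5.26 and 5.16 at 6h50 min, and 4.91, 4.89 and 4.85 at 24 h. Under pollen, TALDO1 read 4.77, 5.22 and 5.25 at 10 min, 5.26, 5.03 and 5.07 at 55 min, 5.05, 5.18 and 5.12 at 2h25 min, 5.18, 5.32 and 5.37 at 6h50 min, and 4.87, 4.81 and 4.88 at 24 h. TALDO1, transaldolase, had the smallest p of all members between pollen and mock at 10 min. There the pollen arrays lay below the mock arrays, and replicate 1 was the lowest. The TALDO1 difference at 10 min was -0.20 ± 0.10 (SE, adjusted p = 1), and it fell over time by 0.40 in mock at 24 h (adjusted p = 0.00342), with -0.23 under pollen not called (adjusted p = 0.083). UGDH, which makes UDP-glucuronate for conjugation, was called in no comparison. In mock, UGDH read 0.17, 0.26 and 0.27 at 10 min, 0.14, 0.18 and 0.23 at 55 min, 0.25, 0.34 and 0.37 at 2h25 min, 0.3, 0.22 and 0.1 at 6h50 min, and 0.26, 0.25 and 0.12 at 24 h. Under pollen, UGDH read 0.08, -0.05 and 0.32 at 10 min, -0.52, 0.23 and 0.12 at 55 min, 0.52, 0.19 and 0.4 at 2h25 min, -0.04, 0.19 and 0.41 at 6h50 min, and 0.13, 0.26 and 0.17 at 24 h. The 55 min pollen replicate 1 was lowest, the other arrays overlapped, and the 55 min pollen difference of -0.24 (adjusted p = 0.92) was -0.01 without it. EPHX1, the microsomal epoxide hydrolase, was called in no comparison either.

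CAT, the peroxisomal enzyme that breaks down hydrogen peroxide, fell in both arms and differed most between them at 24 h. In mock, CAT read 1.35, 1.52 and 1.46 at 10 min, 1.57, 1.38 and 1.22 at 55 min, 1.32, 1.5 and 1.11 at 2h25 min, 0.18, 0.41 and 0.27 at 6h50 min, and -0.1, 0.14 and -0.08 at 24 h. Under pollen, CAT read 1.46, 1.47 and 1.49 at 10 min, 1.77, 1.38 and 1.22 at 55 min, 1.22, 1.49 and 1.19 at 2h25 min, 0.47, 0.64 and 0.46 at 6h50 min, and 0.31, 0.2 and 0.43 at 24 h. From 6h50 min onwards the CAT arrays lay below all earlier ones, and at 6h50 min and 24 h every pollen array lay above every mock array. CAT fell by 1.16 and 1.46 in mock at 6h50 min and 24 h (2.24-fold and 2.74-fold, adjusted p = 2.46e-06 and 4.59e-08), and by 0.95 and 1.16 under pollen (adjusted p = 1.55e-05 and 1.27e-06). On the slide shared by 2h25 min and 24 h the values were -1.12 and -0.88, each from 1 array of 2h25 min. Pollen minus mock for CAT was 0.24 ± 0.13 (SE, adjusted p = 0.764) at 6h50 min and 0.33 ± 0.13 (SE, adjusted p = 1) at 24 h, and neither passed the test.

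The peroxidases with other locations moved less. In mock, GPX1 read 6.91, 7.29 and 7.25 at 10 min, 6.76, 6.85 and 7.15 at 55 min, 7.03, 7.15 and 7.23 at 2h25 min, 7.15, 7.16 and 6.95 at 6h50 min, and 7.44, 7.3 and 7.24 at 24 h. Under pollen, GPX1 read 6.77, 7.1 and 6.99 at 10 min, 6.51, 7.01 and 7.13 at 55 min, 7.14, 6.95 and 7.15 at 2h25 min, 6.85, 7.14 and 7.28 at 6h50 min, and 7.57, 7.33 and 7.36 at 24 h. GPX1, the cytosolic glutathione peroxidase, overlapped between arms at each time, with -0.19 at 10 min (adjusted p = 1). GPX1 rose under pollen at 24 h by 0.47 (adjusted p = 0.0193), a call lost without 10 min or 24 h pollen replicate 1 (adjusted p = 0.0946 and 0.0933). This GPX1 value was 0.17 after normexp and quantile normalization and 0.16 in the deposited table, and neither was called (adjusted p = 0.152 and 0.185). A second GPX1 probe was called higher under pollen at 24 h (0.49), with 0.27 in mock not called. In mock, PRDX5 read 5.19, 5.47 and 5.47 at 10 min, 5.38, 5.3 and 5.33 at 55 min, 5.52, 5.5 and 5.47 at 2h25 min, 5.2, 5.42 and 5.29 at 6h50 min, and 5.32, 5.24 and 5.33 at 24 h. Under pollen, PRDX5 read 5.44, 5.35 and 5.36 at 10 min, 5.38, 5.34 and 5.26 at 55 min, 5.49, 5.5 and 5.43 at 2h25 min, 5.27, 5.37 and 5.32 at 6h50 min, and 5.49, 5.34 and 5.47 at 24 h. At 24 h all 3 pollen arrays of PRDX5, a peroxiredoxin of mitochondria and peroxisomes, lay above the mock arrays, by 0.14 ± 0.08 (SE, adjusted p = 1), and PRDX5 was called in no comparison.

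GPX4, which protects membrane lipids, fell by 0.42 in mock and by 0.35 under pollen at 6h50 min (adjusted p = 0.000722 and 0.00249) and by 0.27 in mock at 24 h (adjusted p = 0.0153). The last call was lost without 10 min mock replicate 2 or 3 or 24 h mock replicate 3 (adjusted p = 0.0555, 0.0914 and 0.064). PRDX3 of mitochondria rose by 0.20 and 0.22 in mock and by 0.18 and 0.29 under pollen at 6h50 min and 24 h, but at 6h50 min the difference was -0.03 in mock and 0.02 under pollen after quantile normalization. The PRDX3 calls at 6h50 min were lost without 10 min replicate 1 or 3 of the arm, without 6h50 min mock replicate 1 or 2, and without 6h50 min pollen replicate 1 or 3, and the mock call at 24 h without 10 min mock replicate 1 or 24 h mock replicate 3 (adjusted p between 0.0515 and 0.138). In mock at 24 h PRDX2 fell by 0.54 and PRDX6 by 0.35 (adjusted p = 0.00623 and 0.0109), with the calls lost without 24 h mock replicate 3 (adjusted p = 0.0513) and without 10 min mock replicate 3 (adjusted p = 0.0505). A second PRDX6 probe, not on the other array design, fell at 24 h by 0.45 in mock and by 0.48 under pollen (adjusted p = 0.00172 and 0.0013), and at 6h50 min by 0.51 and by 0.37 (adjusted p = 0.000871 and 0.0083). That PRDX6 probe lay in the dim area, and without the values of the area its mock difference at 6h50 min was -0.27 (adjusted p = 0.111). SOD1, the cytosolic superoxide dismutase, was called in no comparison.

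The wider pathway was read in 50 further tested genes, among them the small MAF proteins, the repressor BACH1, ferritins and glutathione transferases. None was called between pollen and mock. The smallest p belonged to BLVRA, biliverdin reductase, at 6h50 min, where pollen exceeded mock by 0.97 ± 0.22 (SE, 1.96-fold, adjusted p = 0.0892). BLVRA lay in the dim area and read 3.1, 3.92 and 4.68 in mock at 6h50 min, and without the values of the area the difference was 0.19 ± 0.16 (SE, adjusted p = 1). BACH1 differed by 0.30 and the small MAF gene MAFF by 0.75 at 2h25 min (adjusted p = 1 for both), and GSTA4, a glutathione transferase, by 0.38 (adjusted p = 0.695) at 24 h. Over time, 0, 1, 23 and 27 of the 50 were called in mock and 0, 3, 27 and 28 under pollen at the 4 later times, beside the shares of all probes given above. In mock at 24 h GSTA4 fell by 1.19 and FTL, the ferritin light chain, rose by 1.32.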

How the data were processed

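The members and gene lists were chosen with earlier results of these data known. The authors deposited 1 file of spot intensities per array (Agilent Feature Extraction 11.0.1.1, already corrected for background and for gradients across the array per the file headers). They also deposited log2 values in a table, used as an alternative. Of its 29 columns set against the arrays, 23 matched their own array best and 6, all at 24 h, another array of their group. Spots marked uneven or as outliers were left out, replicate spots were averaged, and log2 intensities were centred on the 75th percentile of the 33873 probes on both designs, because the deposited arrays differ in design. This was R 4.3.3 with version 1.17.8 of data.table. A probe was tested where the 3 arrays of some group were all well above background, with limma 3.58.1 (lmFit, eBayes, 10 group means, 30 arrays, 20 residual and 2.35 prior degrees of freedom), with Benjamini-Hochberg adjustment over all tested probes. A call needs an adjusted p under 0.05 and, except for interactions, at least 1.1-fold, the criteria in the methods. A gene is represented by its brightest probe on both designs. Values of every array are given for NRF2 and KEAP1, 7 commonly read targets, SOD2, the 3 members with the smallest p per time between pollen and mock and the 5 with the largest called change per time and arm. Deviations of same-numbered mock and pollen arrays from their group means correlated by 0.193 to 0.504 at 10 min, 2h25 min and 24 h and by -0.0496 to 0.234 at 55 min and 6h50 min, and the methods place each mock in the run of its pollen. Probe positions are hg19 as the files give them, and their place in exons or UTRs was not analysed here. Promoters are from RefSeq. The fit was tested on simulated data.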

Additional observations from a re-analysis of the deposited data

How the results depend on the processing

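Pollen against mock called 0 members at every time under every alternative run. Counts of members over time that moved by over 1.5 times were these. With the percentile over all probes of an array, 5 and 7 members were called in mock at 6h50 min and 24 h, and 0, 7 and 6 under pollen at 2h25 min, 6h50 min and 24 h. With array weights 2 were called in mock at 55 min, and with slide as a random block 0 under pollen at 2h25 min. There the count was 0 to 1 where 10 min or 2h25 min pollen replicate 1 or 2 was left out. Without 10 min pollen replicate 3 HMOX1 alone lost its call, and without 2h25 min pollen replicate 3 SOD2 alone. Under the settings other than the percentile over all probes and leaving out 1 array, the counts at 6h50 min and 24 h were 8 to 15 and 13 to 19 in mock and 8 to 15 and 10 to 19 under pollen. SOD2 between pollen and mock at 55 min turned to -0.32 with the percentile over all probes, which moved the median of all probes to -0.37 through the array of the other design, and to -0.01 with normexp and quantile normalization. At 24 h it ranged from -0.04 to 0.25 when 1 array was left out. SLC7A11 at 55 min turned to -0.18 with the percentile over all probes, and PRDX3 in mock at 6h50 min to -0.03 after quantile normalization. With the replicate block, 0 members were called between pollen and mock, and as a random block 0, 0, 11 and 16 in mock and 0, 3, 12 and 14 under pollen. Of the 57 calls of members over time, 25 held with the percentile over all probes, 48 after normexp and quantile normalization, 49 without the filter, 56 with array weights, 39 with slide as a random block and 47 in the deposited table. The calls of AKR1B10, AKR1C3, CAT and SQSTM1 were kept under every alternative run. With the percentile over all probes, calls of ABCC2, AKR1C1, GCLC, GPX1, GPX2, GPX4, HMOX1, ME1, NQO1, PRDX2, PRDX3, PRDX6, SOD2, TALDO1, TKT, TXN and TXNRD1 were lost. That setting centres the array of the other design on a different set of probes, and its deviation enters the spread that all groups share. Both after normexp and quantile normalization and in the deposited table, at least 1 call each of ABCC2, AKR1C1, GCLC, GPX1, GPX2, NQO1 and PRDX3 was lost. Over all probes, the 14 called between pollen and mock at 6h50 min became 303 after quantile normalization, 386 in the deposited table, 530 with array weights, 135 with the replicate block and 30 with slide as a random block, but 5 with the percentile over all probes, 3 without the filter and 5 with the dim area left out, and the 12323 called in mock at 6h50 min became 5571 with the percentile over all probes. After normexp and quantile normalization the lower share of those calls was 42.6% in place of 65.9%. With 3 arrays per group the interval of a pollen difference was wide for the dim genes GPX2, ABCC2 and OSGIN1.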
